A study of Mus musculus with 16 samples.

Results

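The 10 genes described here encode the actins and the tropomyosins of the mouse: the 6 actin genes Acta1, Actc1, Acta2, Actg2, Actb and Actg1, and the 4 tropomyosin genes Tpm1, Tpm2, Tpm3 and Tpm4. They were chosen by gene name, with earlier results of these data known, and all 10 were found among the 55573 genes of the count table. Ventricular RNA was sequenced from 16 male mouse hearts, 4 in each of 4 groups. Every mouse, controls included, carried the genotype aMHC-MerCreMer;Trbp-Flox/Flox, in which the alpha-MHC promoter drives a tamoxifen-inducible Cre recombinase in cardiomyocytes and both alleles of Trbp (gene symbol Tarbp2, an RNA-binding partner of Dicer) can be deleted. At 4 weeks of age the Trbp-cKO mice received Tamoxifen at 30 mg/kg once daily for 5 days and the control mice received corn oil, so that tamoxifen itself and the loss of Trbp cannot be told apart. Mice then had sham surgery or transverse aortic constriction (TAC), which narrows the aorta and overloads the heart, and hearts were taken about 8 weeks after surgery at 16 weeks of age. The groups are called Control sham, Control TAC, Trbp-cKO sham and Trbp-cKO TAC, with hearts numbered 1 to 4 within each.

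Actin polymerises into thin filaments, and tropomyosin lies along them as a coiled coil that, with the troponins, sets when myosin can bind. Acta1 and Actc1 encode the skeletal and cardiac sarcomeric alpha-actins, Acta2 and Actg2 the smooth muscle actins, and Actb and Actg1 the cytoplasmic actins of all cells. In the adult mouse ventricle Actc1 and Tpm1 are the main sarcomeric forms, while Acta1 and Acta2 belong to the fetal heart programme, Acta1 is a classical marker of pressure overload, and Acta2 also marks vessel walls and activated fibroblasts. Tpm2 is a striated and smooth muscle form, and Tpm3 and Tpm4 are best known for their non-muscle products.

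Many of these genes are known targets of serum response factor, which binds the CArG box, so the 250 bases before the RefSeq start sites are shown for the main ventricular actin and for the 3 members whose levels varied most. They are written 5′ to 3′ from the minus strand of GRCm38.p6, with CArG boxes and the letters CATTCC (the MCAT element, either strand) in capitals. The GENCODE models of Actc1, Acta2 and Tpm2 also have exons that begin further upstream than these start sites.
Actc1 (chr2:114052876-114053125): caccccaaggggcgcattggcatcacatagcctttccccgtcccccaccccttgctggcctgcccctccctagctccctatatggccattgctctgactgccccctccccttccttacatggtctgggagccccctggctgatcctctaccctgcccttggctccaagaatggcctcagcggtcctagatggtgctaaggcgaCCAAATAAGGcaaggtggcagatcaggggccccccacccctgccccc
Acta1 (chr8:123894776-123895025): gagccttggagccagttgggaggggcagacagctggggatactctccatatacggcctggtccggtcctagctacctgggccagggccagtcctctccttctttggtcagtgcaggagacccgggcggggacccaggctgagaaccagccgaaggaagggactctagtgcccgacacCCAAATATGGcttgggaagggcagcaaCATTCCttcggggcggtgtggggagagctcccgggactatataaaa
Acta2 (chr19:34255374-34255623): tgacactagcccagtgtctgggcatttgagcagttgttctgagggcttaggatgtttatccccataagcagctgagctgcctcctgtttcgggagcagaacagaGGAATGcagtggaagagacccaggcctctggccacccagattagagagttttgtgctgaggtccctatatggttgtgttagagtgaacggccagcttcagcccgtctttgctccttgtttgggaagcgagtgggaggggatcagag
Tpm2 (chr4:43523555-43523804): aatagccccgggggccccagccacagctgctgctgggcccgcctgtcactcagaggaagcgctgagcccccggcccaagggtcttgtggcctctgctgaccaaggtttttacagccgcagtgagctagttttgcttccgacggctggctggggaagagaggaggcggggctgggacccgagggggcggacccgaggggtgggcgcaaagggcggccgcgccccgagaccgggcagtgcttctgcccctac
RefSeq windows of 300 bases, 250 before and 50 after the start, were at hand for 8 of the 10 members (9 windows, with 2 for Tpm3). A CArG box lay in 3 of the 9 windows, those of Actc1 at position -47 (CCAAATAAGG), Acta1 at -73 (CCAAATATGG) and Actg1 at -90 (CCATATATGG), where positions count back from the start site and a match to the box on one strand is also a match on the other. It lay in 1.63% of all 32851 windows compared, a set that did not cover every chromosome. CATTCC or its reverse complement lay in 3 of the 9 windows, at -46 in Acta1, -56 in Tpm1 and -146 in Acta2, and in 14.7% of all windows. TATAAA, on either strand, lay in 2 of the 9 windows, those of Actc1 and Acta1, and in 13.6% of all windows. The Tpm2 window held none of these motifs. These are matches of letters only. The CArG boxes counted hold only A or T between CC and GG. Near matches, such as ccctatatgg and ccttgtttgg in the Acta2 window, were not counted.

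The libraries held 45166994 to 68274222 counts each, so that even Tpm2, with 974 to 5921 counts, was well measured, and only Actg2, with 15 to 74 counts per heart, was sparse. Values per heart are CPM, read counts scaled to a common library size with TMM factors, and levels of different genes are compared only as CPM per kilobase of exon sequence. Tarbp2 checked the labels: it was 30.6 to 33.2 CPM in Control sham hearts and 21.1 to 31.1 CPM in Control TAC hearts, against 8.38 to 11.4 CPM in Trbp-cKO sham hearts and 7.14 to 9.73 CPM in Trbp-cKO TAC hearts. The atrial markers Sln, Myl7 and Bmp10 were at most 0.478 CPM in all 16 hearts, and the skeletal muscle myosins Myh1, Myh2 and Myh4 at most 0.236 CPM. Other markers on those lists differed between groups: the atrial light chain Myl4 was 1.14 to 1.96 CPM in Control TAC hearts and 3.94 to 7.19 CPM in the Trbp-cKO TAC group, and the fast skeletal troponin Tnni2 was 0.758 to 0.959 CPM in Control sham hearts and 2.03 to 2.86 CPM in the Trbp-cKO sham group. A few hearts stood apart. Control TAC hearts 1 and 2 had 38.2% and 38.8% of their counts on mitochondrial genes, against 18.2% to 26.3% in the other 14 hearts. Trbp-cKO TAC heart 4 had the lowest Acta1 level of all 16 hearts and the lowest Actc1 and Tpm1 levels of its group. Fewer cells of one type and less RNA per cell cannot be told apart in whole ventricle.

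Per kilobase, Actc1 had the highest mean of the 10 genes in every group and Actg2 the lowest. In Control sham hearts the order of mean levels was Actc1 at 5098 ± 411 CPM per kilobase (SD, n = 4), Tpm1 at 1053 ± 33.6, Acta1 at 713 ± 118, Actb at 180.3 ± 22.5, Actg1 at 145 ± 21.5, Acta2 at 100.1 ± 29.3, Tpm4 at 54.6 ± 7.04, Tpm3 at 11.3 ± 1.36, Tpm2 at 6.14 ± 0.584 and Actg2 at 0.267 ± 0.0851. Neighbours in this order did not overlap between hearts, except that Actb overlapped Actg1 and Actg1 overlapped Acta2. In Trbp-cKO sham hearts Acta2 stood at position 4, at 227 ± 41.4 CPM per kilobase, above Actb at 145.6 ± 16.4 with no overlap, and Tpm2 at 11.98 ± 1.59 stood level with Tpm3 at 11.9 ± 1.17. In Control TAC hearts Acta2 stood at position 7, at 41.5 ± 5.67 CPM per kilobase, below Actg1 without overlap and below Tpm4 with overlap.

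**Figure D1:**
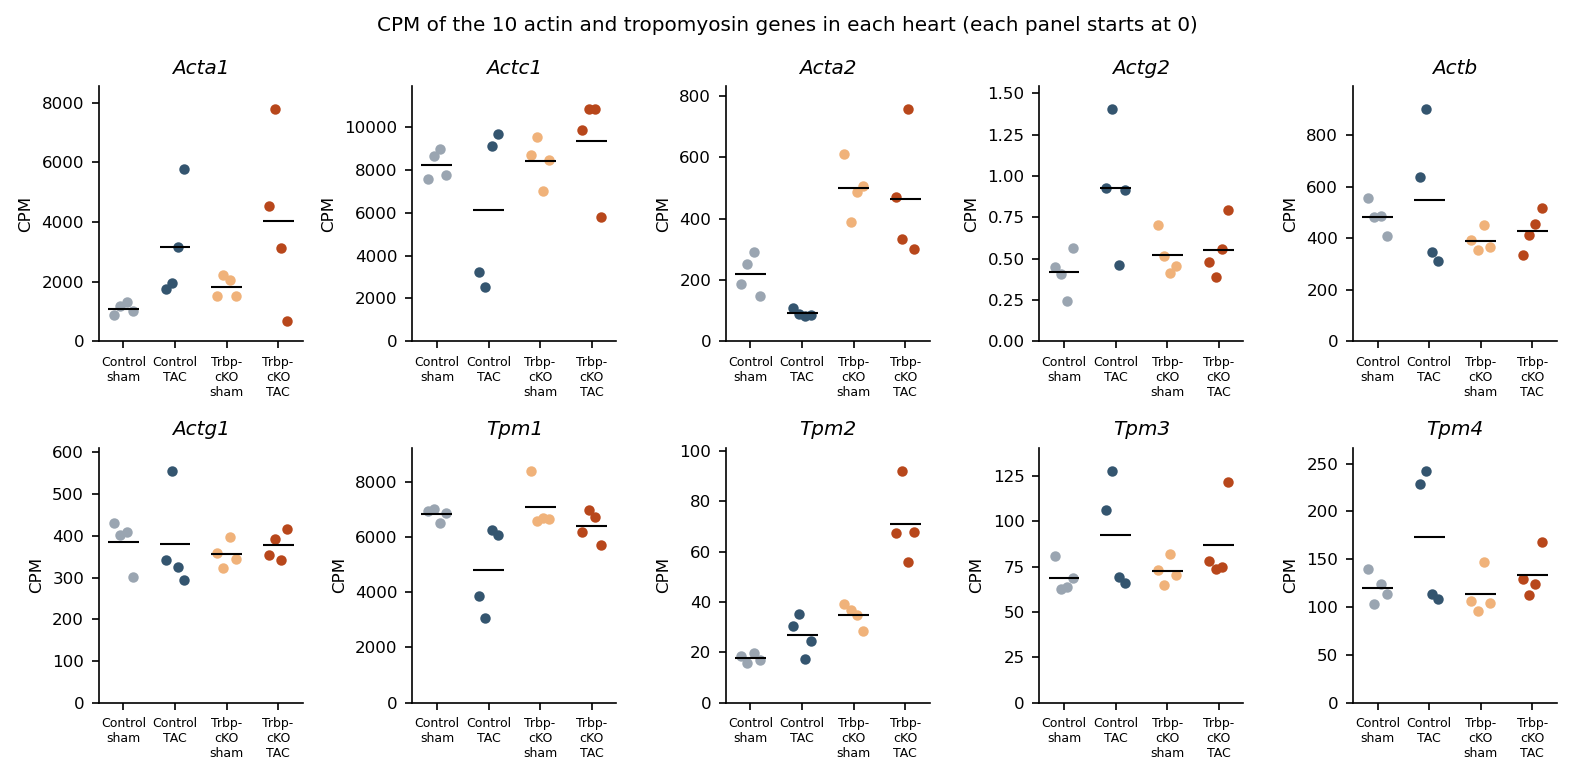
CPM of each of the 10 genes (y axis, linear, from 0) in the 4 hearts of each group (x axis; points from left to right are hearts 1 to 4, black lines are group means). Acta2 ran from 81.4 to 109 CPM in Control TAC hearts and from 301 to 757 CPM in Trbp-cKO TAC hearts, and Tpm2 was highest in the 4 Trbp-cKO TAC hearts.

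Acta2 and Tpm2 were the members that differed between Trbp-cKO and control hearts, in both surgeries, and both were higher without Trbp. Acta2 was 2.27-fold higher after Trbp deletion in sham hearts and 5.11-fold higher in TAC hearts, and Tpm2 was 1.95-fold and 2.63-fold higher. TAC in control hearts lowered Acta2 by 1.27 on the log2 scale, and TAC in Trbp-cKO hearts raised Tpm2 2.03-fold. The other 8 genes passed the test in none of the comparisons. Here a gene passed when its Benjamini-Hochberg adjusted p over all 19955 genes tested, from edgeR's quasi-likelihood test on all 16 hearts, was at most 0.05. All 10 members entered the test. Under alternative filters, scalings, fits and left-out hearts, the sham deletion calls of Acta2 and Tpm2 passed in 8 and 11 of 19 cases. The deletion calls in TAC hearts passed in 21 and 20 of 21 cases.

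**Figure D2:**
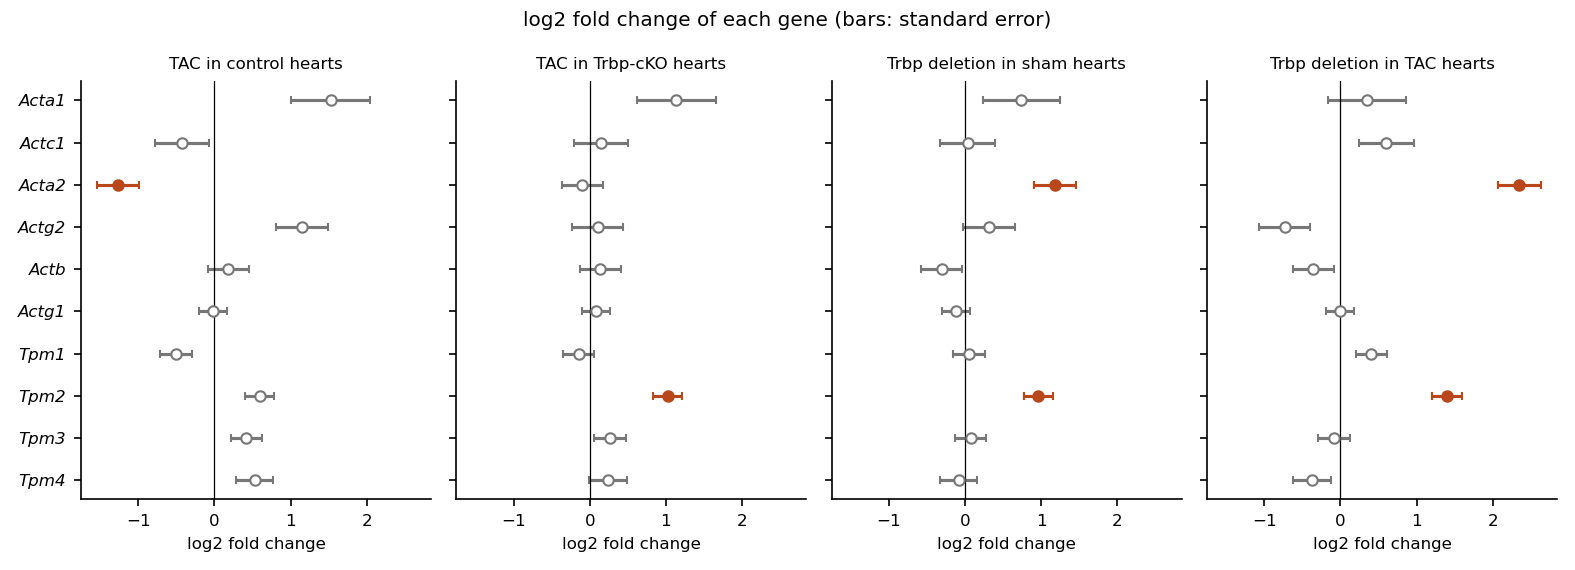
log2 fold change of each gene (x axis) with its standard error (bars) in the 4 pairwise comparisons, from the fit of all 16 hearts. Filled red points passed an adjusted p of 0.05 and open grey points did not: Acta2 passed in 3 comparisons, at -1.27, 1.18 and 2.35, and Tpm2 in 3, at 1.02, 0.96 and 1.40.

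Acta2, the smooth muscle alpha-actin, measured 186, 253, 292 and 149 CPM in Control sham hearts 1 to 4. It measured 109, 87.2, 81.4 and 86.5 CPM in Control TAC hearts. All 4 Control TAC hearts lay below all Control sham hearts, and their spread was narrow, with an SD of 12.5 CPM around 91.1 CPM. Acta2 measured 611, 389, 486 and 508 CPM in Trbp-cKO sham hearts. It measured 469, 335, 757 and 301 CPM in Trbp-cKO TAC hearts. The lowest of these 8 Trbp-cKO hearts was therefore above the highest of the 8 control hearts, and the Trbp-cKO TAC and sham hearts overlapped.

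The drop of Acta2 with TAC in control hearts was a log2 fold change of -1.27 (SE 0.27, adjusted p = 0.0164, edgeR's quasi-likelihood test), 1 of the 10 members, where 6.29% of all genes passed in this comparison. Groups did not overlap for 3 members in it (Acta2 and Tpm1 lower, Acta1 higher), beside 17.4% of all genes. In Trbp-cKO hearts the change of Acta2 with TAC was -0.10 (SE 0.27, adjusted p = 0.886). The difference between the TAC responses, tested as the interaction, was 1.17 for Acta2 (SE 0.38, unadjusted p = 0.0079, adjusted p = 0.156 by the same test), so that it did not pass. Without Control TAC hearts 1 and 2, Acta2 still fell by 1.39 on the log2 scale but no longer passed (adjusted p = 0.106), and leaving out Control sham heart 3 or Control TAC heart 2 alone gave adjusted p values of 0.0558 and 0.0515.

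After Trbp deletion Acta2 was higher by 1.18 on the log2 scale in sham hearts (SE 0.27, adjusted p = 0.0417) and by 2.35 in TAC hearts (SE 0.28, adjusted p = 0.000289, edgeR's quasi-likelihood test). Members passing numbered 2 of 10 in sham hearts, beside 1.68% of all genes, and 2 of 10 in TAC hearts, beside 5.53% of all genes. Groups did not overlap for 3 members in sham hearts (Acta1, Acta2 and Tpm2, all higher), beside 14.7% of all genes, and for 2 in TAC hearts (Acta2 and Tpm2, both higher), beside 10% of all genes. The smallest two-sided p that an exact permutation of 4 against 4 hearts can give is 0.0286. Groups that do not overlap always give it, as Acta2 did in both deletion comparisons and in the control TAC comparison. In TAC hearts the Acta2 difference passed when each of the 8 hearts was left out in turn, at 2.02 to 2.51 on the log2 scale, and without Control TAC hearts 1 and 2 it was 2.46 (adjusted p = 0.00299). In sham hearts it kept its direction but no longer passed when any 1 heart was left out, at adjusted p of 0.0667 to 0.148 and log2 fold changes of 1.03 to 1.34. Over all genes, the number passing in sham hearts was 336 with every heart and 95 to 181 with one left out.

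Acta2 marks smooth muscle, so its change was set beside other genes of that cell type. The summed level of the 8 smooth muscle markers (Myh11, Tagln, Cnn1, Smtn, Lmod1, Myocd, Synpo2 and Mylk) was 379 to 411 CPM in Control sham hearts and 365 to 413 CPM in Trbp-cKO sham hearts. It was 307 to 343 CPM in Control TAC hearts and 362 to 387 CPM in Trbp-cKO TAC hearts. None of the 8 passed for Trbp deletion in sham hearts by edgeR's quasi-likelihood test, beside 1.68% of all genes. At an unadjusted p under 0.05 there was 1, beside 2734 of 19955 genes. The median log2 fold change of the 8 was 0.008 beside 0.010 for all genes. In TAC hearts Cnn1, which encodes calponin, and Synpo2 passed, at 0.90 (adjusted p = 0.0453) and 0.90 (adjusted p = 0.0489), beside 5.53% of all genes. Myh11, the smooth muscle myosin heavy chain, ran from 26.3 to 43.2 CPM over the 16 hearts and overlapped between all groups. With TAC in control hearts the 8 markers went both ways. Smtn, which encodes smoothelin, fell by 0.53 on the log2 scale (adjusted p = 0.0086), and it fell also in Trbp-cKO hearts, by 0.65 (adjusted p = 0.000834), where Acta2 did not pass. Tagln and Cnn1 were at 0.53 and 0.65 in control hearts and did not pass (adjusted p = 0.165 and 0.124). Myocd, a coactivator of serum response factor, was at least 21.2 CPM in Control sham hearts, 4.97 to 19.7 CPM in the Control TAC group and 9.24 to 16.4 CPM in the Trbp-cKO sham group. Its log2 fold changes of -0.97 for TAC in control hearts and -0.79 for Trbp deletion in sham hearts did not pass (adjusted p = 0.0845 and 0.281). Of 6 pericyte markers, none passed for Trbp deletion in sham hearts, beside 1.68% of all genes. Of the 6, 2 had an unadjusted p under 0.05, beside 2734 of 19955 genes. Cspg4 rose in TAC hearts, at 0.66 (adjusted p = 0.0453), beside 5.53% of all genes passing. It was the only 1 of the 6 with a log2 fold change above 0 there. The summed pericyte level was 948 to 1104 CPM in Control TAC hearts and 779 to 865 CPM in Trbp-cKO TAC hearts, with no overlap, and was made up mostly of Rgs5, at 519 to 740 against 397 to 512 CPM. The part of these cell type markers in the Acta2 result was not tested.

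Activated fibroblast markers, the other usual company of Acta2, rose with TAC in the control hearts in which Acta2 fell. Of 8 such markers (Postn, Cthrc1, Comp, Thbs4, Cilp, Fn1, Meox1 and Ltbp2), 7 rose with TAC in control hearts, beside 6.29% of all genes passing in either direction, and all 8 in Trbp-cKO hearts, beside 9.94%. Their summed level was 117 to 139 CPM in the Control sham group and 358 to 1094 CPM in the Control TAC group. It was 174 to 227 CPM in the Trbp-cKO sham group and 1265 to 3424 CPM in the Trbp-cKO TAC group. After Trbp deletion 6 of the 8 rose in TAC hearts, beside 5.53%, and none passed in sham hearts, beside 1.68%. In sham hearts 3 had an unadjusted p under 0.05, beside 2734 of 19955 genes. The median log2 fold change there was 0.94 beside 0.010 for all genes. A separate list of 8 fibroblast markers (Pdgfra, Tcf21, Dpt, Lum, Dcn, Col1a1, Col1a2 and Col3a1) summed to 850 to 1000 CPM in the Control sham group and 1137 to 1390 CPM in the Trbp-cKO sham group, with no overlap. Of these 8, Lum, which encodes lumican, rose with Trbp deletion in sham hearts, at 0.74 (adjusted p = 0.00293), beside 1.68% of all genes passing. At an unadjusted p under 0.05 there were 7, beside 2734 of 19955 genes. The summed level was 1099 to 1806 CPM after TAC in control hearts and 1696 to 2651 CPM after TAC with Trbp deleted. The part of these cells in the Acta2 differences of the sham and TAC hearts was not tested.

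**Figure D3:**
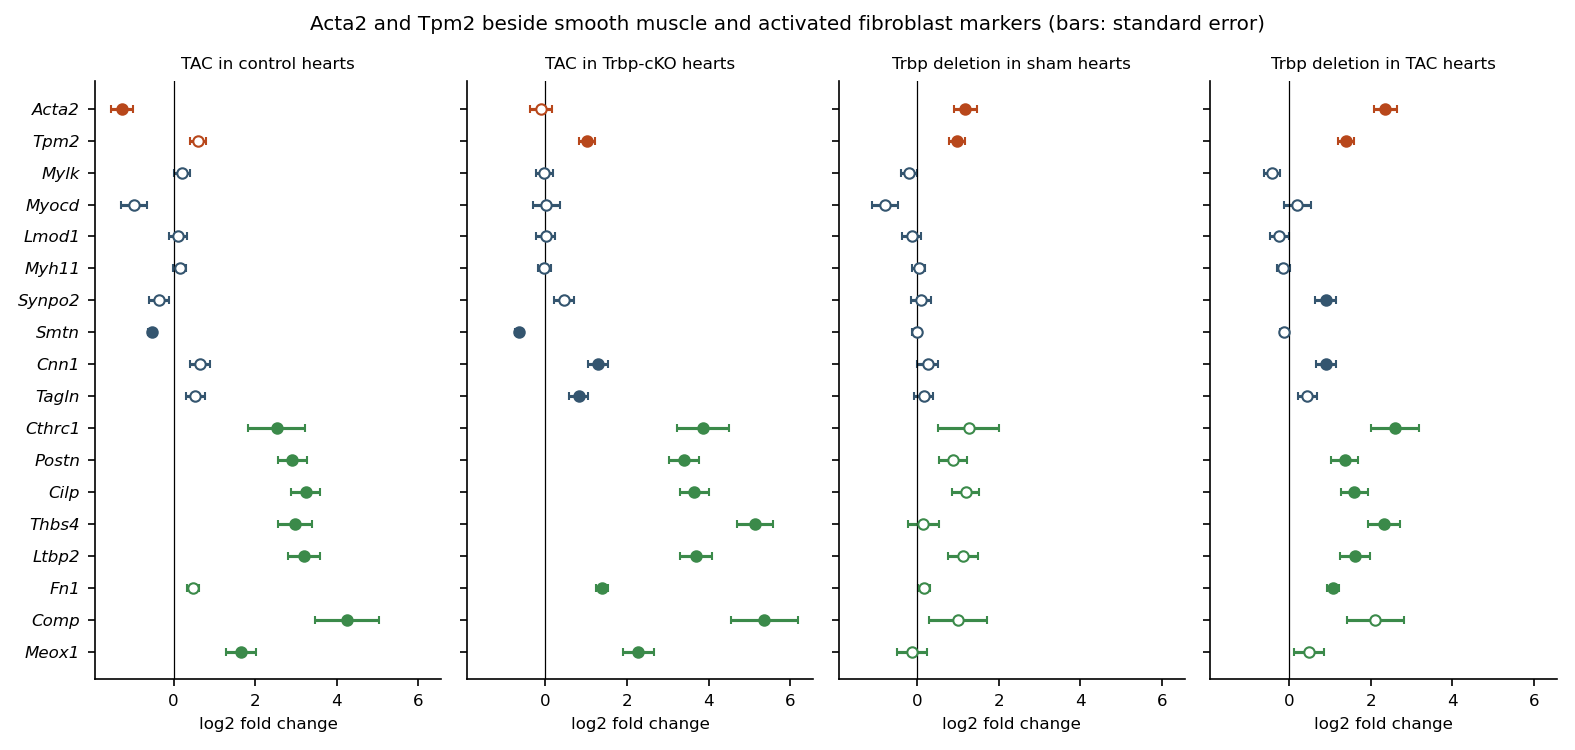
log2 fold change (x axis, bars are standard errors) of Acta2 and Tpm2 (red), 8 smooth muscle markers (blue) and 8 activated fibroblast markers (green) in the 4 comparisons, with filled points where the adjusted p was at most 0.05. Acta2 lay at -1.27 in control hearts after TAC, where 7 of the 8 fibroblast markers rose, and at 1.18 after Trbp deletion in sham hearts, where none of the 16 markers passed.

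Tpm2, the beta-tropomyosin, measured 18.5, 15.9, 19.8 and 17.2 CPM in Control sham hearts. It measured 30.6, 35.3, 17.2 and 24.5 CPM in Control TAC hearts. It measured 39.4, 36.7, 34.8 and 28.5 CPM in Trbp-cKO sham hearts. Every Trbp-cKO sham heart was thus above every Control sham heart, while the Control TAC hearts reached down into the range of the Control sham hearts. In Trbp-cKO TAC hearts Tpm2 measured 67.4, 92.2, 56.1 and 67.8 CPM, above all other 12 hearts.

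With Trbp deletion Tpm2 was higher by 0.96 on the log2 scale in sham hearts (SE 0.19, adjusted p = 0.0231) and by 1.40 in TAC hearts (SE 0.20, adjusted p = 0.00082, edgeR's quasi-likelihood test). TAC raised it by 1.02 in Trbp-cKO hearts (SE 0.19, adjusted p = 0.00318), as the only 1 of 10 members to pass, where 9.94% of all genes passed, and the only 1 whose groups did not overlap, beside 17.2% of all genes. In control hearts the change of Tpm2 with TAC was 0.59 (SE 0.19, adjusted p = 0.077) and did not pass. The TAC responses of Tpm2 differed by 0.43 (SE 0.27, adjusted p = 0.475, the interaction in the same fit). Without Control TAC hearts 1 and 2, the 2 with the highest Tpm2 of their group, the TAC change in control hearts was 0.23 (adjusted p = 0.799) and the deletion difference in TAC hearts was 1.75 (adjusted p = 0.000468). In sham hearts the Tpm2 difference kept its direction with any heart left out, at 0.89 to 1.05, and its adjusted p lay between 0.0358 and 0.0716, passing only without Trbp-cKO sham heart 4. The summed fibroblast markers averaged 915.9 CPM in Control sham and 1255 CPM in Trbp-cKO sham hearts, and 1496 and 2112 CPM after TAC. For activated fibroblast markers the means were 129.9 and 195.5 CPM, and 702.2 and 2029 CPM after TAC. For smooth muscle markers they were 396.6 and 389.6 CPM, and 324.8 and 379.0 CPM after TAC. The part of these markers in the Tpm2 result was not tested.

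The sham groups also differed in clock genes. A score of 9 day-arm genes (such as Dbp and Per3) minus 4 night-arm genes (such as Arntl and Nfil3) was 0.51 to 1.45 in Control sham and 3.59 to 3.87 in Trbp-cKO sham hearts on the log2 scale. It was 2.21 to 3.03 in Control TAC hearts and 0.63 to 3.19 in Trbp-cKO TAC hearts. With this score in the fit, neither Acta2 (1.96, adjusted p = 0.238) nor Tpm2 (0.71, adjusted p = 0.456) passed for Trbp deletion in sham hearts, where 2 genes of all 19955 passed, and Acta2 did not pass for TAC in control hearts (-0.81, adjusted p = 0.118). In TAC hearts both passed for Trbp deletion, Acta2 at 2.19 (adjusted p = 0.000324) and Tpm2 at 1.42 (adjusted p = 0.00123). The score and the deletion cannot be told apart in sham hearts.

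Acta1, the skeletal alpha-actin, spread widely within the TAC groups, with a coefficient of variation of 73.3% in Trbp-cKO TAC hearts. It measured 889, 1171, 1306 and 1017 CPM in Control sham and 1753, 1943, 3170 and 5775 CPM in Control TAC hearts. It measured 1532, 2228, 2055 and 1513 CPM in Trbp-cKO sham and 4533, 7777, 3138 and 688 CPM in Trbp-cKO TAC hearts. Neither the Control TAC group nor the Trbp-cKO sham group overlapped the lower Control sham group, so each has an exact permutation p of 0.0286. Trbp-cKO TAC heart 4 was below every other heart. TAC in control hearts gave a log2 fold change of 1.53 (SE 0.52, adjusted p = 0.0865), TAC in Trbp-cKO hearts 1.14 (SE 0.52, adjusted p = 0.198) and Trbp deletion in sham hearts 0.74 (SE 0.51, adjusted p = 0.595), so that Acta1 passed edgeR's quasi-likelihood test nowhere. In a fit of the sham hearts alone, where the TAC hearts add nothing to the spread, the same 0.74 passed (adjusted p = 0.0252). Of all genes, 1189 passed in that fit, against 336 in the fit of all 16 hearts. With the clock score in the fit of all 16 hearts the direction of Acta1 turned, to -0.77 (adjusted p = 0.655). Without Trbp-cKO TAC heart 4, Acta1 passed for TAC in Trbp-cKO hearts, at 1.49 (adjusted p = 0.0249). Without that heart and Control TAC hearts 1 and 2 it passed for TAC in control hearts as well, at 2.03 (adjusted p = 0.00627).

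Actc1, the cardiac alpha-actin, measured 7595 to 8958 CPM in Control sham hearts. With Trbp deleted it measured 7031 to 9556 CPM after sham and 5784 to 10840 CPM after TAC. Control TAC hearts measured 3237, 2525, 9107 and 9703 CPM. The group was split, with hearts 1 and 2, the hearts rich in mitochondrial counts, below all other 14 and hearts 3 and 4 above every Control sham heart. Actc1 had log2 fold changes of -0.43 for TAC in control hearts (SE 0.36, adjusted p = 0.454) and 0.60 for Trbp deletion in TAC hearts (SE 0.36, adjusted p = 0.347), and these became 0.19 and -0.02 without Control TAC hearts 1 and 2. Tpm1, the main tropomyosin of the sarcomere, was also lowest in hearts 1 and 2, at 3873, 3053, 6259 and 6074 CPM in Control TAC against 6515 to 7013 CPM in Control sham hearts, so that all 4 lay below the Control sham range. Its log2 fold change of -0.50 (SE 0.21, adjusted p = 0.141) became -0.15 without those hearts. The summed level of 10 cardiomyocyte markers (such as Myh6 and Ttn) was 61820 to 66640 CPM in Control sham and 50400 to 63460 CPM in Trbp-cKO sham hearts. It was 30190, 24200, 58990 and 58470 CPM in Control TAC hearts 1 to 4, and 50310, 58460, 51710 and 33090 CPM in Trbp-cKO TAC hearts 1 to 4. In the latter 4 hearts the activated fibroblast markers summed to 1854, 1265, 1572 and 3424 CPM. The part of these markers in the actin and Tpm1 levels was not tested. Tpm1 measured 6561 to 8395 CPM in Trbp-cKO sham and 5706 to 6960 CPM in Trbp-cKO TAC hearts, which overlapped.

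The mix of sarcomeric actins, given as the share of Acta1 in the sum of Acta1 and Actc1 per kilobase, was 12.2% ± 0.966 (SD, n = 4) in Control sham and 36.6% ± 7.44 in Control TAC hearts. With Trbp deleted it was 18.7% ± 3.74 after sham and 27.5% ± 13.6 after TAC. By heart, the share ran from 10.98% to 13.3% in Control sham and from 26.8% to 44.8% in Control TAC hearts, and the Control TAC hearts 1 and 2, at 36.3% and 44.8%, did not stand apart from hearts 3 and 4, at 26.8% and 38.5%. The Trbp-cKO TAC hearts measured 32.6%, 43.0%, 23.4% and 11.1%, the last at the level of Control sham hearts. Acta2 made up 1.58% ± 0.336 of the 6 actins in Control sham and 0.855% ± 0.503 in Control TAC hearts, and with Trbp deleted 3.32% ± 0.739 after sham and 2.55% ± 1.05 after TAC. Tpm1 made up 93.6% ± 0.773 of the 4 tropomyosins in control and 93.5% ± 1.20 in Trbp-cKO hearts after sham, and 86.3% ± 8.34 and 90.8% ± 1.89 after TAC. Tpm2 made up 0.547% ± 0.0648 in Control sham and 1.21% ± 0.630 in Control TAC hearts, and with Trbp deleted 1.03% ± 0.115 after sham and 2.24% ± 0.412 after TAC, a minor tropomyosin in every group. For these other shares Control TAC hearts 1 and 2 did stand apart from hearts 3 and 4. Acta2 made up 1.40% and 1.16% against 0.465% and 0.393%, Tpm2 1.45% and 1.98% against 0.573% and 0.839%, and Tpm1 81.9% and 76.7% against 93.3% and 93.2%. No test was run on shares.

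**Figure D4:**
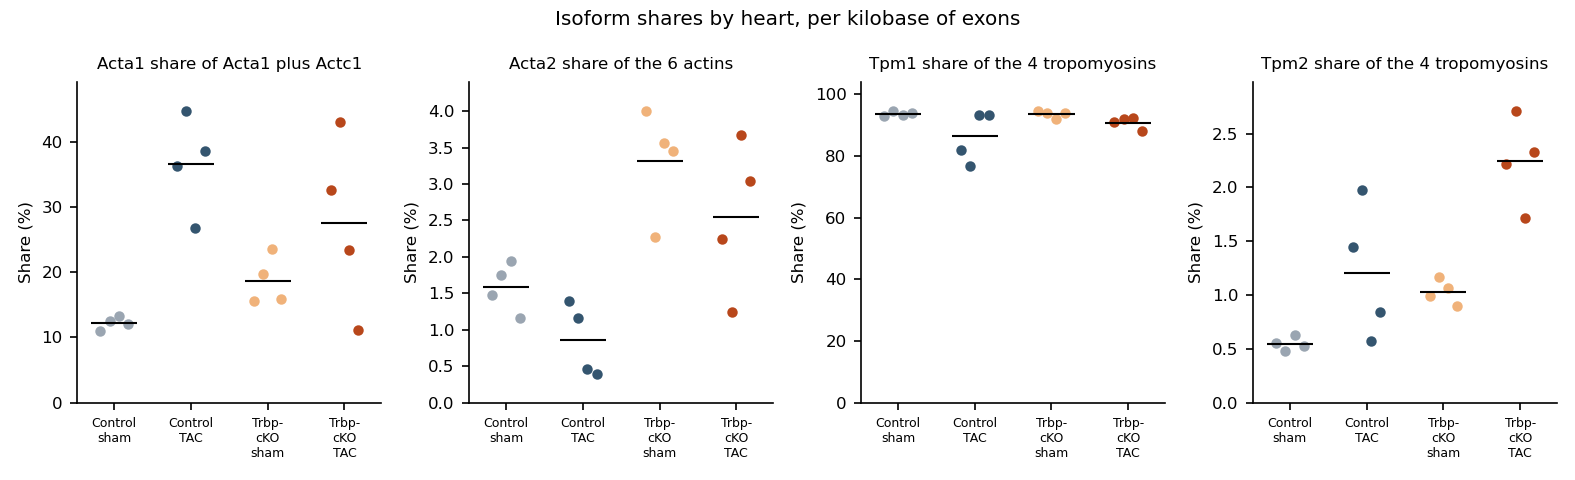
Share in percent, per kilobase of exons (y axes, from 0), of Acta1 among the 2 sarcomeric actins, Acta2 among the 6 actins, and Tpm1 and Tpm2 among the 4 tropomyosins, in each heart (points from left to right are hearts 1 to 4, black lines are group means). The Acta1 share was 26.8% to 44.8% in Control TAC hearts against 10.98% to 13.3% in Control sham hearts, and the Tpm2 share was 1.71% to 2.71% in Trbp-cKO TAC hearts.

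Neither cytoplasmic actin passed in any comparison. Actb had means of 483 ± 60.3 CPM in the Control sham group and 548 ± 277 CPM in the Control TAC group, and with Trbp deleted 390.0 ± 43.9 CPM after sham and 429 ± 77.3 CPM after TAC (SD, n = 4). Actg1 had group means of 356 to 385 CPM and the smallest SD of log2 CPM over the 16 hearts, 0.23, beside 1.07 for Acta2, 0.98 for Acta1 and 0.79 for Tpm2. The highest heart for Actg1 (556 CPM) was Control TAC heart 2. For Actb the Control TAC group was split, with hearts 1 and 2 at 638 and 900 CPM above the Control sham range of 409 to 557 CPM and hearts 3 and 4 at 346 and 310 CPM below it. Without Control TAC hearts 1 and 2 the Actb change of 0.18 with TAC in control hearts turned to -0.56 (adjusted p = 0.197). Actb had log2 fold changes from -0.35 to 0.18 and Actg1 from -0.11 to 0.08 over the 4 pairwise comparisons, with adjusted p of at least 0.478 for Actb and at least 0.852 for Actg1 (edgeR's quasi-likelihood test). Of the 75-base stretches of Actg1 exons, 33.4% also occur in other genes, mainly the pseudogene Gm12715, which was counted at group means of 48.2 to 52.6 CPM, so the Actg1 level is uncertain. The study's paired reads were longer than these stretches, so the share of reads that match other genes can be lower.

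Tpm3 and Tpm4 moved with the split of the Control TAC group. Tpm4 measured 229, 243, 114 and 108 CPM in Control TAC hearts against 104 to 140 CPM in Control sham hearts. Tpm3 measured 106, 128, 69.0 and 66.0 CPM in Control TAC against 62.4 to 80.7 CPM in Control sham hearts. For both genes only hearts 1 and 2 lay above the Control sham range, which is opposite to Actc1 and Tpm1 in the same hearts. The summed level of 6 endothelial markers (Pecam1, Cdh5, Kdr, Tie1, Tek and Emcn) was 1275, 1305, 703 and 671 CPM in Control TAC hearts 1 to 4, against 677 to 798 CPM in Control sham hearts, and that of the 8 fibroblast markers was 1806, 1784, 1099 and 1294 CPM. Their part in the Tpm3 and Tpm4 levels was not tested. Their log2 fold changes for TAC in control hearts were 0.42 for Tpm3 (SE 0.21, adjusted p = 0.207) and 0.53 for Tpm4 (SE 0.25, adjusted p = 0.186), and for Trbp deletion they lay between -0.37 and 0.07. Tpm3 shares 19.1% of its 75-base stretches with Tpm3-rs7, counted at 3.62 to 4.95 CPM on average. Actg2, the enteric smooth muscle actin, had at most 1.40 CPM in any heart, and its log2 fold change of 1.15 for TAC in control hearts (SE 0.34, adjusted p = 0.0531) rested on 15 to 74 counts per heart.

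Over the 10 genes, none passed the interaction of deletion and TAC by edgeR's quasi-likelihood test, where 1.05% of all genes passed, 3069 of 19955 had an unadjusted p under 0.05 and DESeq2 called 931. At an unadjusted p of 0.05, 2 members did, Acta2 and Actg2 (-1.05, SE 0.48, unadjusted p = 0.044), and DESeq2 called 1, Acta2 (adjusted p = 0.0424). The median log2 fold change of the 10 members was 0.30 for TAC in control hearts, 0.06 for Trbp deletion in sham hearts, 0.17 for Trbp deletion in TAC hearts and 0.14 for TAC in Trbp-cKO hearts, beside 0.025, 0.010, -0.011 and -0.002 for all genes. These comparisons share their control groups.

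Among the other thin filament genes, Tnnc1 fell with Trbp deletion after both surgeries. Tnnc1, which encodes the cardiac calcium-binding troponin C, was 1790 to 1860 CPM in Control sham and 497 to 596 CPM in Trbp-cKO sham hearts, and fell by 1.74 on the log2 scale (adjusted p = 8.75e-05). In TAC hearts it fell by 1.16 with Trbp deletion (adjusted p = 0.000566). Of 15 listed partners (troponins, tropomodulins, leiomodins, nebulin and its relatives), 1 rose and 2 fell with Trbp deletion in sham hearts, beside 1.68% of all genes passing in either direction, and 2 rose and 2 fell in TAC hearts, beside 5.53%. Tnnt1, the slow skeletal troponin T, fell by 1.03 in sham hearts (adjusted p = 0.032) and by 1.05 in TAC hearts (adjusted p = 0.0152), and Tnni2, the fast skeletal troponin I, rose by 1.53 in sham hearts (adjusted p = 0.00899) from under 1 CPM. With TAC, 1 partner fell in control hearts, Tnni2, beside 6.29% of all genes, and in Trbp-cKO hearts 1 rose, Tnni1, and 4 fell, among them Tnni2, Tmod4 and Tnnt1, beside 9.94%. All adjusted p values here are from edgeR's quasi-likelihood test.

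Among 31 genes of actin assembly and turnover, 1 passed for Trbp deletion in sham hearts, beside 1.68% of all genes, and 3 in TAC hearts, beside 5.53%, all higher. Dstn, which encodes the actin-severing protein destrin, passed in both, at 0.91 in sham hearts (adjusted p = 0.0112) and 1.27 in TAC hearts (adjusted p = 0.000344, edgeR's quasi-likelihood test). Its levels were 94.3 to 165 CPM over the 8 control hearts and 211 to 298 CPM over the 8 Trbp-cKO hearts, with no overlap between control and Trbp-cKO hearts, as for Acta2. The other pair, Actr3 and Arpc2 of the filament-branching Arp2/3 complex, rose by 0.35 and 0.42 in TAC hearts. Of 24 actin crosslinkers and anchors, 8 rose with TAC in Trbp-cKO hearts, beside 9.94% of all genes, led by Actn1 at 1.34, Cnn1 at 1.29 and Pdlim7 at 0.88, and 1 rose with TAC in control hearts, Pls3 at 0.69, beside 6.29%. None of the 24 passed for Trbp deletion in sham hearts, beside 1.68%, and 1 had an unadjusted p under 0.05, beside 2734 of 19955 genes. With Trbp deletion in TAC hearts 3 rose, Cnn1 at 0.90, Cnn2 at 0.68 and Zyx at 0.62, beside 5.53%.

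Serum response factor, its coactivators and the cardiac transcription factors known to act on muscle promoters were listed as well. Of 15 such genes, 1 passed for TAC in control hearts, beside 6.29% of all genes, and 1 for Trbp deletion in TAC hearts, beside 5.53%. Mef2a fell with TAC in control hearts (-0.48, adjusted p = 0.0341) and Sox6 rose with Trbp deletion in TAC hearts (1.41, adjusted p = 0.0226, edgeR's quasi-likelihood test). None passed for Trbp deletion in sham hearts, beside 1.68%, or for TAC in Trbp-cKO hearts, beside 9.94%. At an unadjusted p under 0.05 there were 4 and 2 in these comparisons, beside 2734 and 4586 of 19955 genes. Sox6 was 12.3 to 13.4 CPM in Control sham and 16.5 to 31.0 CPM in Trbp-cKO sham hearts. These groups did not overlap, as for 14.7% of all genes. Of the 15 genes, 3 had a log2 fold change above 0 for Trbp deletion in sham hearts. Of 8 hypertrophy and fetal genes other than the actins, 4 rose with TAC in control hearts, beside 6.29%, and 6 in Trbp-cKO hearts, beside 9.94%, led in the latter by the natriuretic peptide genes Nppa at 3.29 and Nppb at 2.88 and by Xirp2 at 2.45. With Trbp deletion 1 rose in sham hearts, Ankrd1 at 0.59, beside 1.68%, and 3 rose in TAC hearts, Nppa at 2.09, Myl4 at 1.90 and Nppb at 1.39, beside 5.53%.

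The genes whose pattern over the 16 hearts lay closest to each of the 3 most variable members were found by the root mean square difference of log2 CPM, each gene centred on its own mean, among 12959 genes. For Acta2 they were Colq at 0.499, Asb4 at 0.520 and Grin2c at 0.590. For Acta1 they were Tfrc at 0.522, Myot at 0.532 and Mybpc2 at 0.544. For Tpm2 they were Hyal1 at 0.255, Rras at 0.292 and Fxyd6 at 0.303. The distance is smaller for Tpm2, whose own SD was the smallest of the 3. Hearts of 1 group and libraries of 1 composition are shared by all these points.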

How the data were processed

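RNA of 16 ventricles was sequenced as paired reads. Per the labels, the authors used cutadapt 2.3 for trimming, HISAT2 2.1.0 for alignment to GRCm38 and StringTie 1.3.4 for quantification, and deposited a table of gene counts. By the study's methods these counts come from transcript coverage through the prepDE script, so they are estimates in whole numbers whose scale depends on an assumed read length. Strand setting and annotation release are not given in the sources used here, so reads of Acta1, Actc1 and Tpm4 cannot be told apart from those of genes on the opposite strand (Gm20388, A530058N18Rik, Gm16091 and Gm26586). As counted, Gm20388 was at 0 CPM in every group. Group means were 12.2 to 35.3 CPM for A530058N18Rik, beside at least 6143 CPM for Actc1. They were at most 2.27 CPM for Gm16091 and Gm26586, beside at least 113 CPM for Tpm4. Counts per gene cannot resolve tropomyosin splice forms, and the length used per kilobase, the union of GENCODE M21 exons, affects levels between genes.

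Counts were filtered (filterByExpr, 19955 genes), TMM-scaled and tested with edgeR 4.0.16 (R 4.3.3; robust quasi-likelihood test, 1 coefficient per group, all 16 hearts). The labels call the hearts biological replicates. Exact permutation tests on CPM were two-sided over 70 assignments. Alternatives used DESeq2 1.42.0, other filters, scalings, fits and left-out hearts. Log2 CPM used a prior count of 2.

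Named genes are all 10 members, Tarbp2, up to 3 risers and 3 fallers per list among genes that passed, and the 3 nearest patterns of the 3 most variable members. Marker genes outside this rule (Myh11, Myocd, Rgs5, Sln, Myl7, Bmp10, Myh1, Myh2 and Myh4) were named after their values were seen, as cell type checks. The members and lists were chosen with earlier results of these data known.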

Additional observations from a re-analysis of the deposited data

Results flagged for a closer look

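In 2 of the 40 sets of 4 hearts examined (10 genes in 4 groups), 1 heart lay far from the other 3, which chance gives in about 1 of 20 sets. Tpm1 in Trbp-cKO sham heart 1 was 8400 CPM, with the other 3 hearts between 6560 and 6700 CPM and a gap of 0.926 of the whole range. Tpm3 in Trbp-cKO TAC heart 4 was 121 CPM, with the other 3 between 73.7 and 78.3 CPM and a gap of 0.905 of the range. That heart is also the one with the low Acta1 and Actc1 levels. Both genes passed in no comparison.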

How the results depend on the processing

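The number of members passing for TAC in control hearts was 1, and it was 4 with DESeq2 (Acta1, Acta2, Actg2 and Tpm2), 2 with edgeR's exact test on the pair of groups (Acta1 and Acta2), 2 with halved counts (Acta2 and Actg2), and 0 with the clock score in the fit or without Control TAC hearts 1 and 2. With 1 heart left out in turn it ranged from 0 to 3, the 3 being Acta2, Actg2 and Tpm2 without Control TAC heart 3. Over all genes 1256 passed, against 2499 with DESeq2, 1432 with the exact test, 1401 with halved counts and 2512 without Control TAC heart 3. Fewer passed with the clock score, 816, and without Control TAC hearts 1 and 2, 149. With 1 heart left out in turn the count over all genes ranged from 380 to 2871. For Trbp deletion in sham hearts members passing numbered 2, and 3 with edgeR's exact test and in a fit of that pair of groups alone, where Acta1 joined (adjusted p = 0.000591 and 0.0252), 1 with no filter on low counts (Tpm2, with Acta2 at an adjusted p of 0.0545), 0 with the clock score and 0 to 1 with 1 heart left out. Over all genes 336 passed there, against 1652 with the exact test, 1189 in the fit of the pair alone and 207 with no filter. The count over all genes was 2 with the clock score and 95 to 181 with 1 heart left out. For Trbp deletion in TAC hearts members passing numbered 2, and 1 in a fit of that pair of groups alone (Acta2, with Tpm2 at an adjusted p of 0.0526) and 2 with any heart left out. Over all genes 1103 passed there, against 96 in the fit of the pair alone and 467 to 1598 with 1 heart left out. For TAC in Trbp-cKO hearts members passing numbered 1, and 2 without Control TAC hearts 1 and 2 and Trbp-cKO TAC heart 4, where Acta1 joined Tpm2, and 1 to 2 with 1 heart left out. Over all genes 1984 passed there, against 3530 without the 3 named hearts and 1321 to 1836 with 1 heart left out. For the interaction members passing numbered 0, and 1 with DESeq2, where 931 of all genes passed against 209. The cause of these shifts was not tested. Leaving out the 3 named hearts, 1 member passed for TAC in control hearts, Acta1 in place of Acta2 (adjusted p = 0.051 for Acta2), beside 533 of all genes. The alternatives without Control TAC hearts 1 and 2, and those without Trbp-cKO TAC heart 4 as well, were chosen after seeing the data. In these fits the spread is shared by all groups, and a group with 2 hearts left adds little to it.

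With the replicate number as a replicate block, 1 member passed for Trbp deletion in sham hearts (Tpm2 at 0.0419, Acta2 at 0.0556), and no other member's call changed. Same-numbered hearts had correlations of their deviations from the group means between -0.770 and 0.508. These values cannot tell whether such hearts share anything beyond the number. Genes passing fell with the block from 1256 to 511 for TAC in control hearts and from 336 to 155 for Trbp deletion in sham hearts.

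Of 1075 fold changes of single genes under alternatives, 1037 kept their direction or stayed short of the threshold as before, 25 lost the threshold, 13 gained it and 0 changed sign while passing. With library size scaling in place of TMM, the median log2 fold change of all genes was 0.107 for Trbp deletion in sham hearts and 0.128 in TAC hearts, with the same members passing. Of 96 shares under alternatives, 14 moved by more than their SD, all with the length used: Tpm2 in Control sham hearts made up 0.335% by longest transcript and 0.254% with no length, and Acta2 2.08% of the actins with no length. Leaving out a heart cannot shift the mean of a group by a whole SD, so those alternatives could not be flagged and say nothing about single hearts. Actg2 had the fewest counts of the members, 15 to 74 per heart.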
